A study of Homo sapiens with 18 samples.

Results

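MYC and 39 nucleolar genes of ribosome biogenesis were followed through 18 RNA-seq libraries of HCT116, a human colorectal carcinoma cell line. Members were matched by symbol from a list that was set with earlier results of these data known. This gave 40 of the 31004 genes in the count table, and UTP4 was found under its older symbol CIRH1A. The 6 groups held 3 biological replicates each. The HCT116 cells were stably transduced with a puromycin-selected lentiviral vector that was empty (Ctrl), that overexpressed the lncRNA CRLM1, or that carried an antisense control (Antisense). Each of these backgrounds received either an HNRNPK overexpression construct (hnRNPK) or a negative control (NC). The groups are therefore called Ctrl_NC, CRLM1_NC, Antisense_NC, Ctrl_hnRNPK, CRLM1_hnRNPK and Antisense_hnRNPK. All of them share the parental line and the vector system, and the labels do not say whether each background was a clone or a selected pool, nor whether replicates came from separate transductions. The p-values measure the spread between these libraries, and the level of CRLM1 itself was not analysed here.

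MYC is a transcription factor that, with its partner MAX, binds E-box sequences and is known for driving cell growth, in large part by raising ribosome production. Ribosomes are assembled in the nucleolus, where RNA polymerase I transcribes ribosomal DNA, small nucleolar ribonucleoproteins (snoRNPs) modify the transcript, and assembly factors and helicases build the small and the large subunit. In colorectal carcinoma MYC lies downstream of Wnt signalling, and HNRNPK encodes an RNA- and DNA-binding protein that is known to bind a CT-rich element upstream of the MYC gene.

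The libraries held between 19732681 and 27039520 counts. HNRNPK, the overexpressed gene, had 463, 471 and 480 CPM (counts scaled to library depth, with TMM factors between libraries) in Ctrl_NC against 617, 644 and 491 in Ctrl_hnRNPK, 461, 454 and 455 in CRLM1_NC against 671, 713 and 571 in CRLM1_hnRNPK, and 432, 434 and 424 in Antisense_NC against 540, 532 and 583 in Antisense_hnRNPK. Every hnRNPK library thus lay above its NC libraries, and the third Ctrl_hnRNPK and CRLM1_hnRNPK libraries were the lowest of their groups. The log2 fold change of HNRNPK was 0.29 ± 0.17 (SE, edgeR adjusted p = 0.362), 0.56 ± 0.16 (0.533) and 0.35 ± 0.07 (8.4e-04) in the empty, CRLM1 and antisense backgrounds, and 0.44 ± 0.05 (9.9e-07) and 0.65 ± 0.05 (2.0e-12) in the empty and CRLM1 backgrounds without the third hnRNPK library. Many other genes also passed as higher in the 3 fits where HNRNPK did. They were 29.6% and 29.5% of genes in the empty and CRLM1 backgrounds, and 33.4% in the antisense background. Across all genes the third Ctrl_hnRNPK and CRLM1_hnRNPK libraries were closer to the NC libraries of their background (Pearson r of log2 CPM 0.991 to 0.992 and 0.988) than to their own replicates (0.966 to 0.971 and 0.962 to 0.966), whereas the third Antisense_hnRNPK library was closer to its own (0.991 to 0.995 against 0.97 to 0.975). The study set the 2 libraries aside. Here each hnRNPK result in those backgrounds is given with and without them. Of 10 colorectal epithelial markers, 7 had at least 1 FPKM (fragments scaled to transcript length and library depth) in every library, among them EPCAM and KRT19, whereas LGALS4 and VIL1 did not exceed 0.13 FPKM. The 3 leukocyte and 3 endothelial markers found in the table stayed under 0.1 FPKM throughout, as did 4 of 5 fibroblast markers.

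The promoters of 14 members hold the sequence that MYC and MAX are known to recognise, and 5 are shown to make it visible. A window of 250 bases before to 50 bases after a RefSeq start site (GRCh38.p14) was found for 33 of the 40 members. The E-box CACGTG, which reads the same on both strands, occurred in a window of 14 of the 33 (42.4%). It occurred for 11.7% of the 12191 protein-coding genes of the count table with a window, and in 7.26% of all 35116 windows. In each of these 14 members an E-box began no more than 31 bases before and 35 bases after the start site. Any further match more than 50 bases before the start was not listed. Such a match is a description of the letters and does not show binding. Shown are the 50 bases on either side of the start for the 3 E-box members that were highest and the 2 that were lowest in Antisense_NC relative to Ctrl_NC, a comparison described further on. Capitals mark the E-box, each sequence reads 5′ to 3′ in the direction of the gene, and the windows are chr2:28894617-28894716 (plus strand) for WDR43, chr9:4792894-4792993 (plus) for RCL1, chr10:68956597-68956696 (plus) for DDX21, chr17:4555335-4555434 (minus) for MYBBP1A and chr19:39846330-39846429 (minus) for FBL.
WDR43: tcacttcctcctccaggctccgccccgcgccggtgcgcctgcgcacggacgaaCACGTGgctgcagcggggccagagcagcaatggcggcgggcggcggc
RCL1: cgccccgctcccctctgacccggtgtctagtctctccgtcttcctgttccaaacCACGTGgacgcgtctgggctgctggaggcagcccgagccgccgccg
DDX21: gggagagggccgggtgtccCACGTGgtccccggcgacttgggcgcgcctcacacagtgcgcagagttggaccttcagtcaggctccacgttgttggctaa
MYBBP1A: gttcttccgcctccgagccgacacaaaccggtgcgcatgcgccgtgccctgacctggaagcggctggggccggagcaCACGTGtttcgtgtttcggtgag
FBL: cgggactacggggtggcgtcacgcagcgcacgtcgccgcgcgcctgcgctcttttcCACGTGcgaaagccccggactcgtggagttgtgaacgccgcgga

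MYC and the snoRNP proteins FBL and NHP2 were the most abundant members per length. In Ctrl_NC the mean level ran from 0.35 ± 0.0265 FPKM (SD, n = 3) for UTP20, a large scaffold of the small subunit processome, to 298 ± 3.27 FPKM for FBL, the RNA methyltransferase fibrillarin, with a median over the members of 9.14 FPKM. MYC came next below FBL at 217 ± 3.9 FPKM, followed by NHP2, a core protein of box H/ACA snoRNPs, at 166 ± 3.76 FPKM, NOC2L, a large subunit assembly factor, at 107 ± 2.57 FPKM and NPM1, the histone chaperone nucleophosmin, at 97.7 ± 1.6 FPKM. These 5 levels were separated by more than their SDs. POLR1A, the largest subunit of RNA polymerase I, stood near the bottom at 1.19 ± 0.0929 FPKM, within 2 SDs of HEATR1, a processome scaffold, at 1.35 ± 0.103 FPKM. The low value of PPAN, 0.507 ± 0.0473 FPKM, rests on 22, 35 and 26 counts, while the read-through gene PPAN-P2RY11, which contains its exons, was assigned 680, 842 and 695. PPAN is therefore uncertain throughout. For 10 other members at least 10% of the exon bases overlap another annotated gene (NOP58, NHP2, HEATR1, NOP14, TSR1, NOP2, NOP16, WDR74, RRS1 and NIP7), and since the counting strand is not stated, reads of the neighbour cannot be told apart there.

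**Figure D1:**
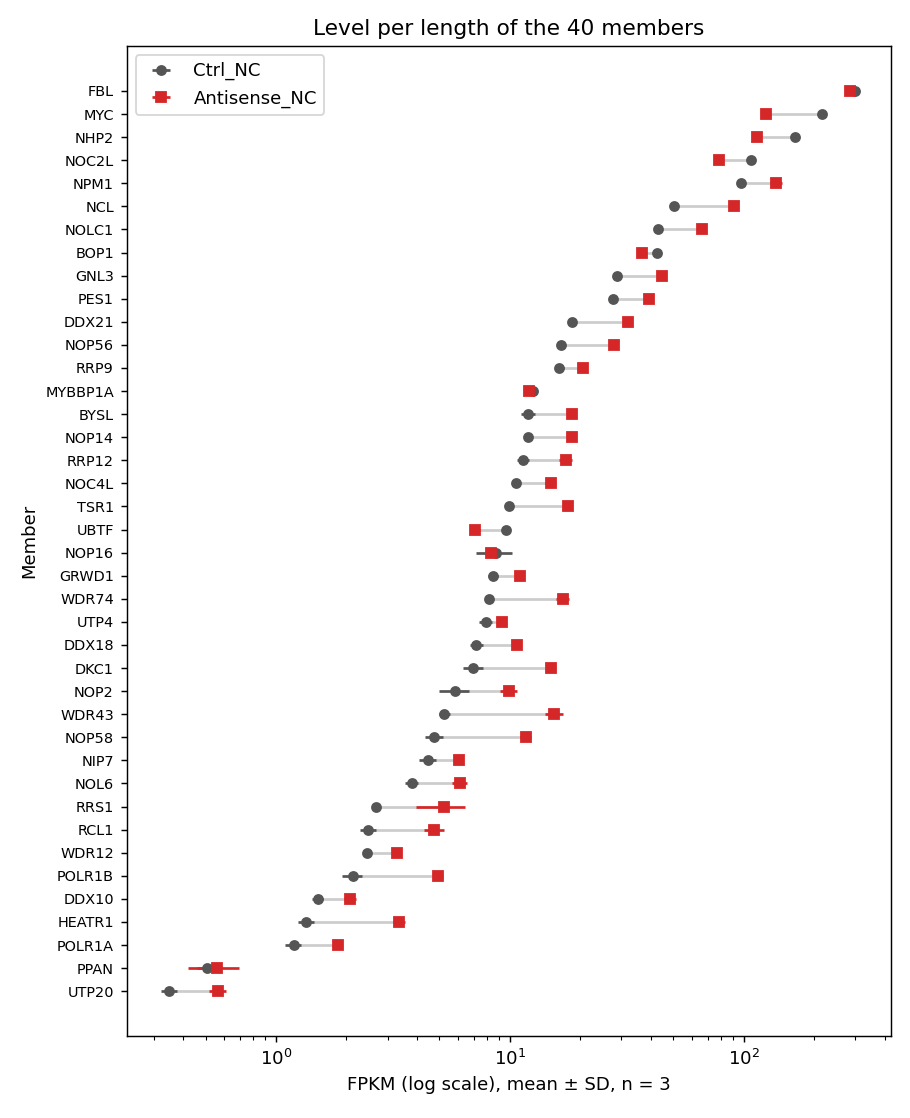
Mean FPKM ± SD (n = 3, log scale) of each of the 40 members in Ctrl_NC (grey circles) and Antisense_NC (red squares), ordered by Ctrl_NC, with a grey line joining the groups. MYC and NHP2 lie to the left in Antisense_NC (124 and 114 FPKM), while most lower members, such as WDR43 with 5.25 and 15.5 FPKM, lie to the right.

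In the antisense background MYC was at 0.484 of its level in the empty control in the edgeR fit, while most ribosome biogenesis genes were higher. MYC (chromosome 8, 127735434 to 127742951, plus strand, GRCh38) had 950, 923 and 917 CPM in Ctrl_NC and 467, 467 and 464 CPM in Antisense_NC. The groups were far apart, with a log2 fold change of -1.05 ± 0.03 (SE, adjusted p = 2.1e-26, edgeR's quasi-likelihood F-test, adjusted by Benjamini-Hochberg over 14389 genes, n = 3 per group). Of the 40 members, 29 were higher and 8 lower at an adjusted p of at most 0.05, against 34.4% and 32.2% of all genes tested. The median log2 difference was 0.37 over the members and near 0 over all genes. In bulk RNA, fewer cells expressing a gene and less RNA per cell cannot be told apart. At the 2-fold rule of the study, 4 members passed, MYC among them, against 14.1% of all genes. On the deposited FPKM the fall of MYC was smaller and short of 2-fold. It had 221, 215 and 214 FPKM in Ctrl_NC and 124, 124 and 122 FPKM in Antisense_NC.

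The small subunit assembly factors moved together, with 12 of 13 higher, none lower and a median log2 difference of 0.45. WDR43, which binds nascent pre-rRNA in the processome, had 28, 26.4 and 25.1 CPM in Ctrl_NC and 65, 75.6 and 65.5 CPM in Antisense_NC, a log2 fold change of 1.33 ± 0.07 (edgeR adjusted p = 3.5e-19). HEATR1 had 15.9, 16.6 and 18.3 CPM against 36.7, 39.5 and 35.4 CPM, a change of 1.09 ± 0.08 (edgeR adjusted p = 2.8e-14). Neither pair of groups came near overlapping. The member of this group that did not pass was UTP4, with 52.7, 53.3 and 47.4 CPM against 50.4, 53.5 and 54.5 CPM.

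On the CPM scale transcripts for proteins of the same particle moved in opposite directions in this comparison. In box C/D snoRNPs, which guide ribose methylation, NOP58 rose from 13.8, 15.2 and 12.7 CPM to 30.7, 31.2 and 28.4 CPM (log2 1.06 ± 0.09, edgeR adjusted p = 6.9e-13) and NOP56 rose from 55.8 to 58.3 CPM to 81.8 to 85.7 CPM, while the methyltransferase FBL fell from 494 to 503 CPM to 401 to 439 CPM. On the deposited FPKM the FBL groups overlapped, with 298, 295 and 302 FPKM in Ctrl_NC and 274, 281 and 297 FPKM in Antisense_NC. In box H/ACA snoRNPs, which guide pseudouridylation, the pseudouridine synthase DKC1 rose from 27.7, 30.7 and 33.6 CPM to 60.7, 55.9 and 57.3 CPM. Its partner NHP2 fell from 206, 210 and 200 CPM to 121, 121 and 129 CPM (log2 -0.78 ± 0.04, edgeR adjusted p = 5.6e-19).

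RNA polymerase I genes also divided. POLR1B, a core catalytic subunit, had 16.7, 18 and 14.7 CPM in Ctrl_NC and 33.5, 35 and 32.1 CPM in Antisense_NC (log2 0.98 ± 0.09, edgeR adjusted p = 1.8e-12), and POLR1A rose as well. UBTF, the factor that opens ribosomal DNA for the polymerase, had 80.3, 79.5 and 80.2 CPM against 53.5, 49.5 and 53.9 CPM (log2 -0.66 ± 0.05, edgeR adjusted p = 2.5e-13), and the nucleolar co-regulator MYBBP1A fell with it on CPM. On FPKM the MYBBP1A groups overlapped, with 12.1, 12.8 and 12.4 FPKM in Ctrl_NC and 12.1, 11.8 and 12.3 FPKM in Antisense_NC. All 3 scaffold and chaperone genes rose: NCL (nucleolin) from 285 to 296 CPM to 450 to 470 CPM, NPM1 from 358 to 370 CPM to 430 to 477 CPM, and NOLC1, a snoRNP chaperone, from 237 to 251 CPM to 323 to 338 CPM.

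Among the 13 large subunit factors 9 rose, 3 fell and 1, PPAN, did not pass. NOC2L fell from 436, 424 and 414 CPM to 269, 275 and 280 CPM (log2 -0.68 ± 0.03, edgeR adjusted p = 2.0e-19). The transcripts of BOP1, PES1 and WDR12, whose proteins form a single complex, did not move as a unit: BOP1 fell from 137 to 143 CPM to 104 to 110 CPM, PES1 rose from 112 to 120 CPM to 141 to 150 CPM, and WDR12 rose from 27.9 to 29 CPM to 33 to 34.5 CPM. For NOP16, which fell, the groups overlapped, since a Ctrl_NC library at 20.1 CPM lay under the highest Antisense_NC library at 20.3 CPM.

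Members with an E-box window included 10 that rose, 2 that fell and 2 that did not pass in Antisense_NC, with a median log2 difference of 0.41. The 19 with a window but no E-box included 14 that rose, 4 that fell and 1 that did not pass, with a median of 0.25, and the difference was not tested. The fold changes in this comparison were related to base composition: over the 40 members Spearman's rho between the log2 fold change and the GC content of the exons was -0.47, and over 14223 genes -0.31, as a description across genes that share these libraries. With a trend on GC content and length removed, 25 members were higher and 9 lower, beside 4601 and 4680 of all genes. In that fit NPM1, DDX10, DDX18 and WDR12, higher before, changed sign, whereas MYC stayed past the threshold on the same side. On the deposited FPKM the median of all genes shifted by 0.23 on the log2(FPKM + 0.1) scale. The members' median stood 0.35 above that shift, and 31 members were higher and 5 lower. Of all genes 6394 were higher and 2704 lower on that scale. The higher ones made up 86.1% of the passing members and 70.3% of all passing genes.

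**Figure D2:**
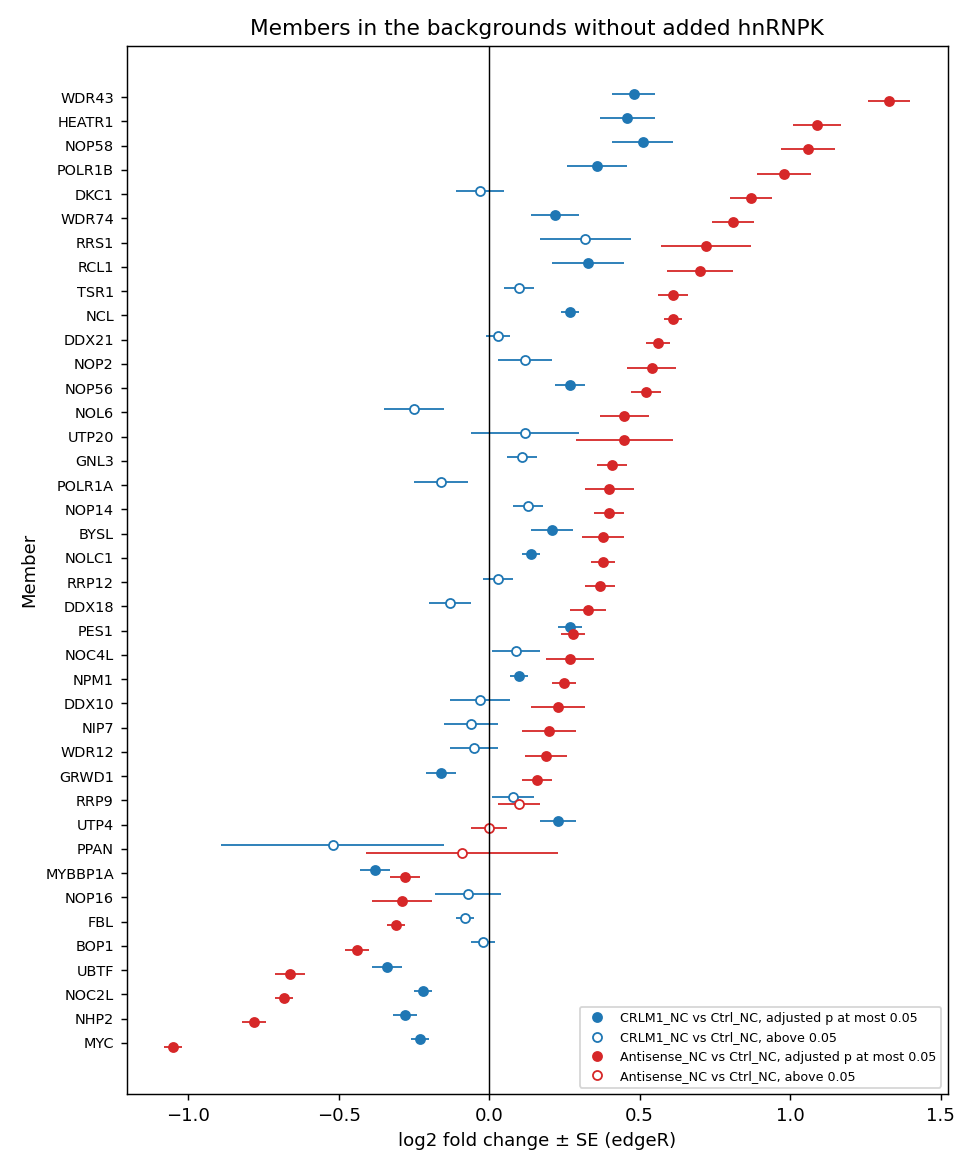
Log2 fold change ± SE of the 40 members in CRLM1_NC (blue) and Antisense_NC (red) against Ctrl_NC, from edgeR, ordered by the Antisense_NC value. Filled points have an adjusted p of at most 0.05. MYC lies lowest in Antisense_NC at -1.05 and WDR43 highest at 1.33, and most CRLM1_NC points lie nearer 0.

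CRLM1 overexpression gave smaller differences from the empty control. MYC had 809, 816 and 775 CPM in CRLM1_NC, all below the Ctrl_NC libraries, a log2 fold change of -0.23 ± 0.03 (edgeR adjusted p = 2.5e-08). Of the members 13 were higher and 6 lower, against 16.9% and 17.4% of 14459 genes, and none reached the 2-fold rule, against 1.58% of all genes. The median log2 difference was 0.08 over the members and 0.01 over all genes.

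NOP58 (19.8, 20.9 and 19.6 CPM in CRLM1_NC), WDR43 (38.5, 37.5 and 36.1 CPM) and HEATR1 (24.3, 21.7 and 24.9 CPM) were highest relative to Ctrl_NC, with log2 fold changes of 0.51 ± 0.10 (edgeR adjusted p = 7.4e-05), 0.48 ± 0.07 (1.3e-06) and 0.46 ± 0.09 (1.0e-04), and each lay between its Ctrl_NC and Antisense_NC libraries without overlap. POLR1B followed at 0.36 ± 0.10 (edgeR adjusted p = 0.00392). MYBBP1A had 66.9, 65.3 and 67.1 CPM against 83.2, 88.4 and 85.4 CPM in Ctrl_NC (log2 -0.38 ± 0.05, edgeR adjusted p = 3.8e-08). UBTF (60.9, 68.7 and 61.7 CPM) and NHP2 (172, 164 and 177 CPM) also fell, by 0.34 and 0.28 on the log2 scale. The small subunit group had 5 members higher and none lower, and the large subunit group 2 higher and 2 lower. DKC1, raised in Antisense_NC, had 33.1, 27.5 and 30.7 CPM here and overlapped Ctrl_NC. In a single fit of all 18 libraries, in which the spread of the hnRNPK groups enters, no member passed in this comparison (median log2 difference 0.10, MYC at -0.22 with an adjusted p of 0.596), while 53 genes were higher and 49 lower.

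Set against each other, CRLM1_NC and Antisense_NC differed in 34 members. Of these 8 were higher in CRLM1_NC (26.9% of 14364 genes were) and 26 lower (29.5%), with a median log2 difference of -0.28, and none passed the 2-fold rule (7.18% of genes). MYC was higher in CRLM1_NC (log2 0.82 ± 0.03, edgeR adjusted p = 3.9e-22). NHP2, NOC2L and BOP1 followed at 0.50 ± 0.04 (1.3e-12), 0.46 ± 0.04 (1.2e-13) and 0.43 ± 0.05 (3.1e-10). Lowest were DKC1 at -0.89 ± 0.07 (edgeR adjusted p = 1.3e-13) and WDR43 at -0.84 ± 0.06 (6.0e-14), then NOL6, a processome protein, at -0.69 ± 0.09 (5.8e-08). NOL6 had 20.7, 15.7 and 17 CPM in CRLM1_NC, 30.2, 31 and 27.2 CPM in Antisense_NC and 20.2, 22.5 and 19.9 CPM in Ctrl_NC. HEATR1 stood at -0.62 ± 0.08 (edgeR adjusted p = 1.6e-08). These 3 comparisons of NC groups share libraries, so their values are given side by side and not as separate evidence.

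**Figure D3:**
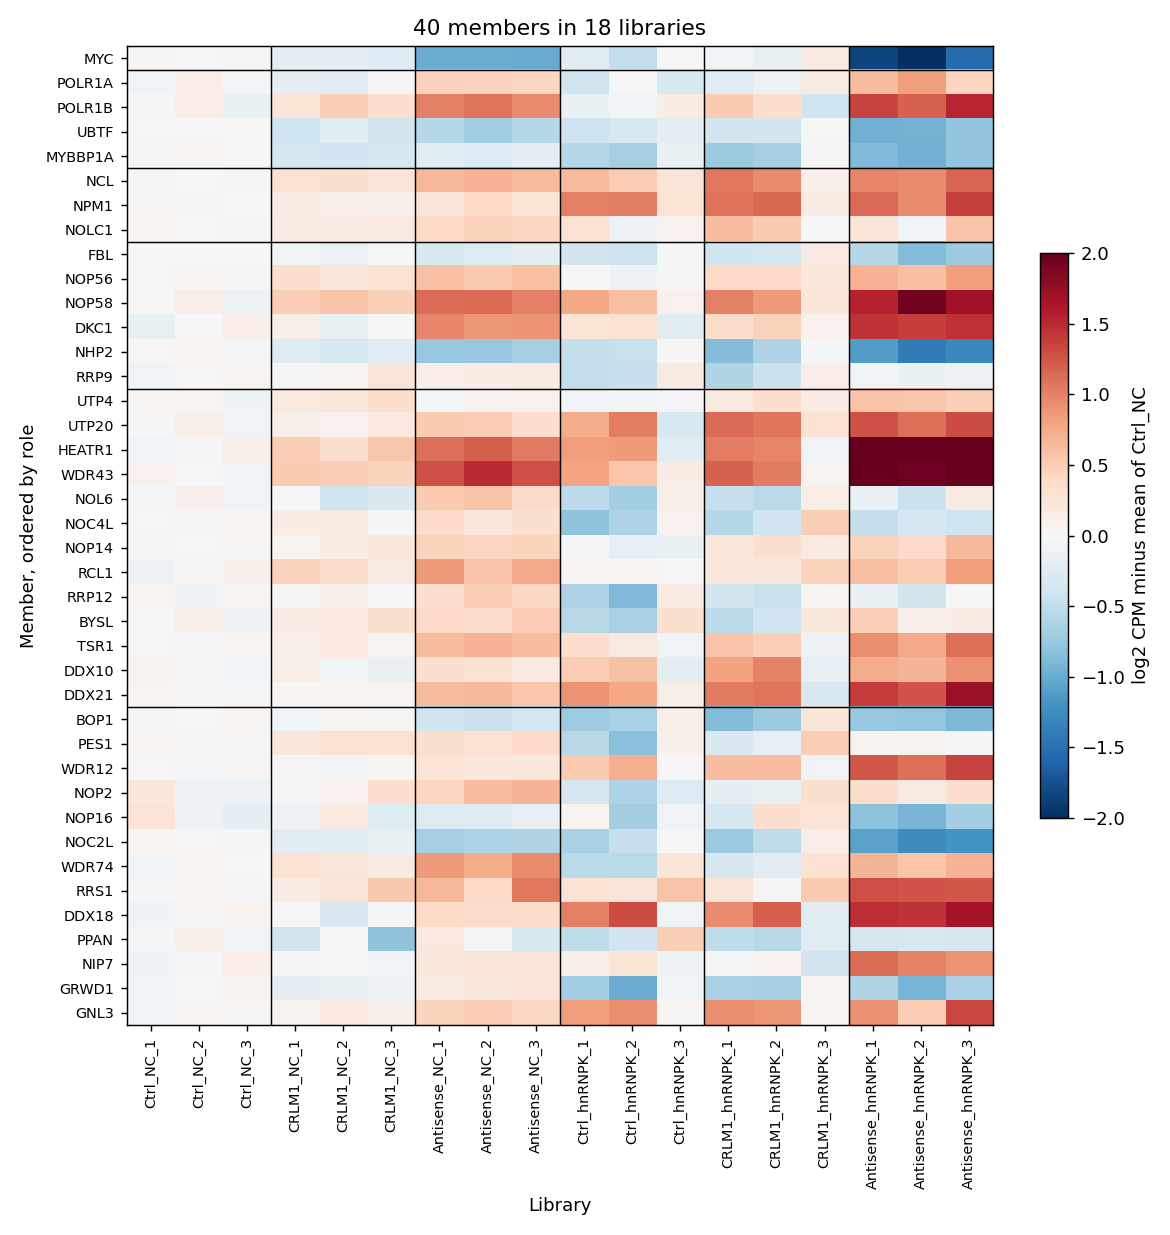
Log2 CPM of each member in each of the 18 libraries minus its mean in Ctrl_NC (colour scale from -2 to 2), members ordered by role, with lines between groups and between roles. The columns of the third Ctrl_hnRNPK and CRLM1_hnRNPK libraries are paler than those of the other hnRNPK libraries, with a median absolute difference over the members of 0.13 and 0.17 against 0.47 to 0.55, while the Antisense_hnRNPK columns are the most strongly coloured at 0.85 to 0.90.

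Most genes of a wider ribosome biogenesis list were also higher in Antisense_NC. Beside shares of all genes of 34.4% higher and 32.2% lower in Antisense_NC, and 16.9% and 17.4% in CRLM1_NC, the lists gave these counts. Of 114 other ribosome biogenesis genes tested, 79 were higher and 19 lower than in Ctrl_NC, with a median log2 difference of 0.50, led by the processome genes UTP3 (1.84 ± 0.13, edgeR adjusted p = 4.6e-15) and UTP15 (1.66 ± 0.15, 6.7e-12). IMP3 and EXOSC5 fell most, by 0.83 and 0.64. In CRLM1_NC 27 of the 114 were higher and 13 lower, with a median of 0.08. Of 30 MYC targets outside the ribosome, 7 were higher and 16 lower in Antisense_NC, with a median of -0.12. There E2F1, a cell cycle transcription factor, fell from 80.7 ± 3.61 to 36.1 ± 2.78 CPM (SD, n = 3), a log2 change of -1.21 ± 0.06 (edgeR adjusted p = 2.7e-19). SLC1A5, a glutamine transporter, rose from 180 ± 10.9 to 411 ± 9.79 CPM. Of 20 partners and antagonists of MYC tested, 11 were higher and 5 lower, and the paralogue MYCL rose from 2.35 ± 0.304 to 8.97 ± 1.07 CPM (log2 1.90 ± 0.17, edgeR adjusted p = 3.3e-12). In CRLM1_NC 9 of these 20 were higher and none lower, and the MAX-binding repressor MNT rose from 49.5 ± 1.24 to 76.3 ± 2.78 CPM. MNT was higher still in Antisense_NC, at 85 ± 0.653 CPM. Of the 30 targets 8 were higher and 10 lower in CRLM1_NC, with a median of -0.03. Between CRLM1_NC and Antisense_NC, where 26.9% of all genes were higher and 29.5% lower, 13 of the 114 were higher and 76 lower in CRLM1_NC, as were 4 and 9 of the 20 and 16 and 5 of the 30.

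HNRNPK overexpression was accompanied by a fall of MYC in the antisense background and not in the CRLM1 background. In Antisense_hnRNPK MYC had 261, 216 and 320 CPM, all below the 464 to 467 CPM of Antisense_NC, a log2 fold change of -0.82 ± 0.11 (edgeR adjusted p = 1.4e-05). In Ctrl_hnRNPK it had 805, 658 and 932 CPM against 917 to 950 CPM (log2 -0.24 ± 0.17, edgeR adjusted p = 0.407), the third library lying within the range of Ctrl_NC. In CRLM1_hnRNPK it had 896, 837 and 1055 CPM against 775 to 816 CPM (log2 0.26 ± 0.15, edgeR adjusted p = 0.558), so that all 3 hnRNPK libraries lay above CRLM1_NC but the difference did not pass. Without the third library the value was -0.32 ± 0.07 in the empty background (edgeR adjusted p = 6.8e-04) and 0.16 ± 0.05 in the CRLM1 background (edgeR adjusted p = 0.00399).

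**Figure D4:**
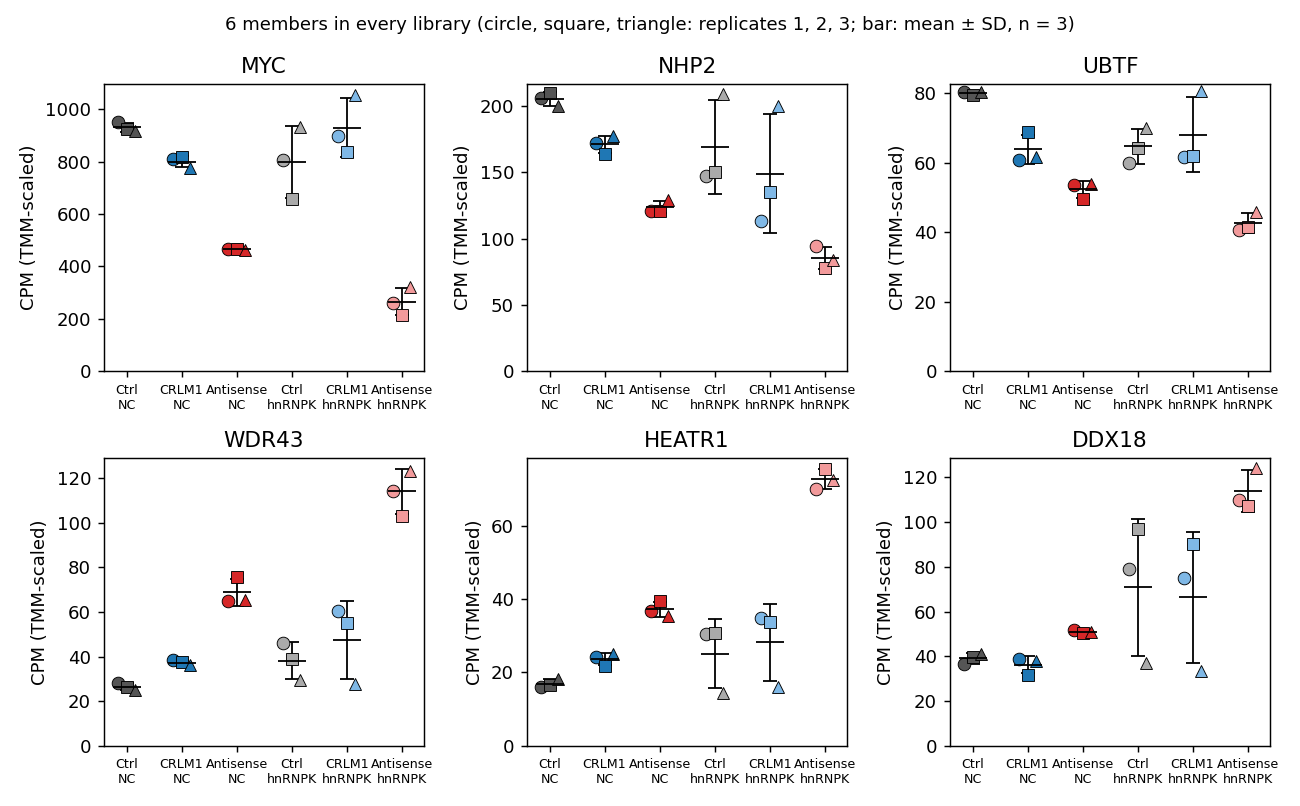
CPM (TMM-scaled, axis from 0) of 6 members in every library of the 6 groups, with the mean ± SD (n = 3). Among the NC groups, and among the hnRNPK groups, the antisense background has the lowest mean of MYC, NHP2 and UBTF. It likewise has the highest mean of WDR43, HEATR1 and DDX18. The triangles of Ctrl_hnRNPK and CRLM1_hnRNPK, which are the third libraries, lie apart from the other replicates for NHP2 (209 and 200 CPM), HEATR1 (14.3 and 16.1 CPM) and DDX18 (36.9 and 33.6 CPM).

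The difference between backgrounds was tested for MYC itself. The effect of HNRNPK overexpression on MYC was 1.07 ± 0.21 higher on the log2 scale in the CRLM1 than in the antisense background (interaction term, edgeR adjusted p = 0.0293). MYC was the only member past the threshold in that test with all libraries, where 1.12% of 15233 genes passed. Against the empty background the effect was 0.47 ± 0.21 higher with CRLM1 (edgeR adjusted p = 1) and 0.60 lower with antisense (SE 0.22, edgeR adjusted p = 0.234), and no member and 0% of genes passed in either test, although 221 and 2179 genes had an unadjusted p under 0.05. With the third hnRNPK library of both backgrounds left out, the MYC differences were 1.13 ± 0.10 (edgeR adjusted p = 4.2e-09), 0.51 ± 0.09 (0.00108) and -0.64 ± 0.12 (5.5e-04), in the same order. In the terms with the antisense background this also dropped the third Antisense_hnRNPK library. That library was close to its own replicates and had the highest MYC level of its group, 320 CPM. The test without the third hnRNPK libraries also passed 12 members that were higher and 6 that were lower with CRLM1 than with antisense, besides MYC (26.5% of 15489 genes passed), including NOLC1 at 0.80 ± 0.10 (1.1e-06) and NIP7, a large subunit factor, at -0.70 ± 0.14 (3.0e-04). It passed 3 members, all higher, for CRLM1 against the empty background (3.45% of 15485 genes), and 10 for antisense against the empty background (16% of 15695 genes). With all libraries and the GC trend removed, the CRLM1 minus antisense value of MYC was 1.01 ± 0.16 (edgeR adjusted p = 0.00131).

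Of the members, 17 were higher and 16 lower with HNRNPK overexpression in the antisense background, where the replicates held together. As shares of the members, both were above the 33.4% and 30.5% of 14501 genes, a difference that was not tested. The 2-fold rule was passed by 2 members (13.4% of genes). DDX18, a helicase of the large subunit pathway, rose from 51.7, 50.4 and 50.7 CPM to 110, 107 and 124 CPM (log2 1.15 ± 0.08, edgeR adjusted p = 1.0e-07). WDR12 rose from 34.5, 33 and 33 CPM to 67.9, 61.4 and 73.4 CPM (1.00 ± 0.08, edgeR adjusted p = 2.8e-07). HEATR1 reached 70, 75.4 and 72.6 CPM (0.96 ± 0.08, 3.3e-07), above every library of the other groups, and the nucleolar helicase DDX21 reached 347, 318 and 436 CPM (0.85 ± 0.10, 4.1e-06). GRWD1, a histone-binding large subunit factor, fell from 75.9, 77.7 and 80.2 CPM to 44.4, 35 and 42.6 CPM (-0.95 ± 0.09, edgeR adjusted p = 8.7e-07). NOC4L, of the small subunit pathway, fell from 32.3, 29 and 31 CPM to 17.6, 19.5 and 18.6 CPM (-0.73 ± 0.10, edgeR adjusted p = 1.4e-05), and MYBBP1A fell to 46.3, 43.7 and 49.4 CPM (-0.66 ± 0.08, 4.5e-06). FPKM gave 20 members higher and 10 lower here, with the median of all genes shifted by 0.24. Of all genes 5735 were higher and 2911 lower in that fit. The higher ones made up 66.7% of the passing members and 66.3% of all passing genes.

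In the empty and the CRLM1 backgrounds no member passed with all libraries, as 0% of 14607 and 0% of 14394 genes did, higher, lower or at the 2-fold rule. At an unadjusted p under 0.05 there were 10 and 5 members, and 2246 and 1332 genes, while DESeq2 passed no member in either, no gene in the empty background and 1 gene in each direction in the CRLM1 background. With the third library of hnRNPK removed, 13 members were higher and 16 lower in the empty background, against 29.6% and 29.9% of 15004 genes, and 2 members passed the 2-fold rule (6.88% of genes). In the CRLM1 background 16 were higher and 13 lower, against 29.5% and 29.1% of 14685 genes, and 4 passed the 2-fold rule (5.3% of genes). These counts rest on 2 hnRNPK libraries in each background. The members' shares at the adjusted p were above those of all genes in each direction, and the difference was not tested.

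Individual libraries show what separated these fits. DDX18 had 78.8, 96.8 and 36.9 CPM in Ctrl_hnRNPK against 36.5, 39.5 and 41.2 CPM in Ctrl_NC, and 75.2, 90 and 33.6 CPM in CRLM1_hnRNPK against 38.7, 31.8 and 38.1 CPM in CRLM1_NC. Both of the third libraries were thus near NC level, and without them its log2 fold change was 1.19 ± 0.09 (edgeR adjusted p = 8.9e-09) and 1.24 ± 0.08 (4.5e-13). NPM1 had 735, 738 and 439 CPM in Ctrl_hnRNPK against 358 to 370 CPM, and 776, 805 and 403 CPM in CRLM1_hnRNPK against 389 to 401 CPM. On CPM the third libraries thus lay above NC, though barely in the CRLM1 background. On FPKM the third Ctrl_hnRNPK library was still above Ctrl_NC (116 against 99.2, 96 and 97.9 FPKM). The third CRLM1_hnRNPK library was below CRLM1_NC (103 against 112, 109 and 110 FPKM). Without the third libraries the log2 fold change of NPM1 was 1.04 ± 0.05 (edgeR adjusted p = 2.4e-10) and 1.05 ± 0.05 (1.8e-16).

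UTP20 and the nucleolar GTPase gene GNL3 in the empty background, and UTP20 and DDX21 in the CRLM1 background, completed the highest members, with log2 values between 0.91 and 1.09 without the third library. The lowest in the empty background were GRWD1 with 41.8, 33.5 and 64.7 CPM against 64.5, 67.2 and 70.5 CPM (-0.82 ± 0.10 without the third library, edgeR adjusted p = 1.1e-06), RRP12, a factor in pre-40S export, at -0.73, NOC4L at -0.70 and PES1 at -0.67. In the CRLM1 background they were BOP1 with 76.5, 83.9 and 165 CPM against 133, 145 and 141 CPM (-0.75 ± 0.06, edgeR adjusted p = 2.2e-11), BYSL, a small subunit factor, at -0.64, RRP9, a snoRNP protein, at -0.57 and NOC4L at -0.54.

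In 26 members the hnRNPK comparison passed in all 3 backgrounds, with the third library left out of the empty and CRLM1 backgrounds, and these comparisons share no library. Of the 13969 genes tested in all 3, 21.2% were higher in all, 22% were lower in all and 0.558% passed in all with mixed direction. Among the members, 13 were higher in all 3 (DDX10, DDX18, DDX21, DKC1, GNL3, HEATR1, NCL, NOP58, NPM1, TSR1, UTP20, WDR12 and WDR43) and 12 were lower in all 3 (BOP1, FBL, GRWD1, MYBBP1A, NHP2, NOC2L, NOC4L, NOP2, PES1, RRP12, RRP9 and WDR74). The remaining member was MYC, lower in the empty and antisense backgrounds and higher in the CRLM1 background. On FPKM WDR74 changed sign in the antisense background, and with the GC trend removed so did DDX10, NOP58, BOP1, NOP2, PES1, RRP9 and WDR74. With the trend removed and the third library left out, the sign changed for DDX10 and DKC1 in the empty background and for GRWD1, MYBBP1A, NOC2L, NOC4L, NOP2 and NOP58 in the CRLM1 background, where MYBBP1A passed as higher. Transcripts for snoRNP proteins stood on both sides, with DKC1 and NOP58 higher and FBL, NHP2 and RRP9 lower.

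Base composition moved with these sets. The members' exon GC content ran from 39.2% to 65.2% with a median of 50.8%. Of the 20 members below the median, 16 rose and 1 fell in Antisense_hnRNPK, and of the 20 at or above it 1 rose and 15 fell. Without the third library the lower-GC members had 13 rising and none falling in the empty background, and 14 rising and none falling in the CRLM1 background. The higher-GC members had none rising and 16 falling, and 2 rising and 13 falling. Spearman's rho between log2 fold change and GC content over the 40 members was -0.90, -0.89 and -0.83 in the empty, CRLM1 and antisense backgrounds, and over all genes with a GC value -0.75, -0.77 and -0.72, as a description across genes that share the same libraries. The third libraries lacked the split: relative to Ctrl_NC the lower-GC and higher-GC members had medians of 0.52 and -0.51 in the first Ctrl_hnRNPK library, 0.53 and -0.52 in the second, and -0.02 and 0.06 in the third. In CRLM1_hnRNPK they were 0.72 and -0.43, 0.73 and -0.38, and 0.06 and 0.17. MYC had a GC content of 51.7%, near the middle of the members' range.

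**Figure D5:**
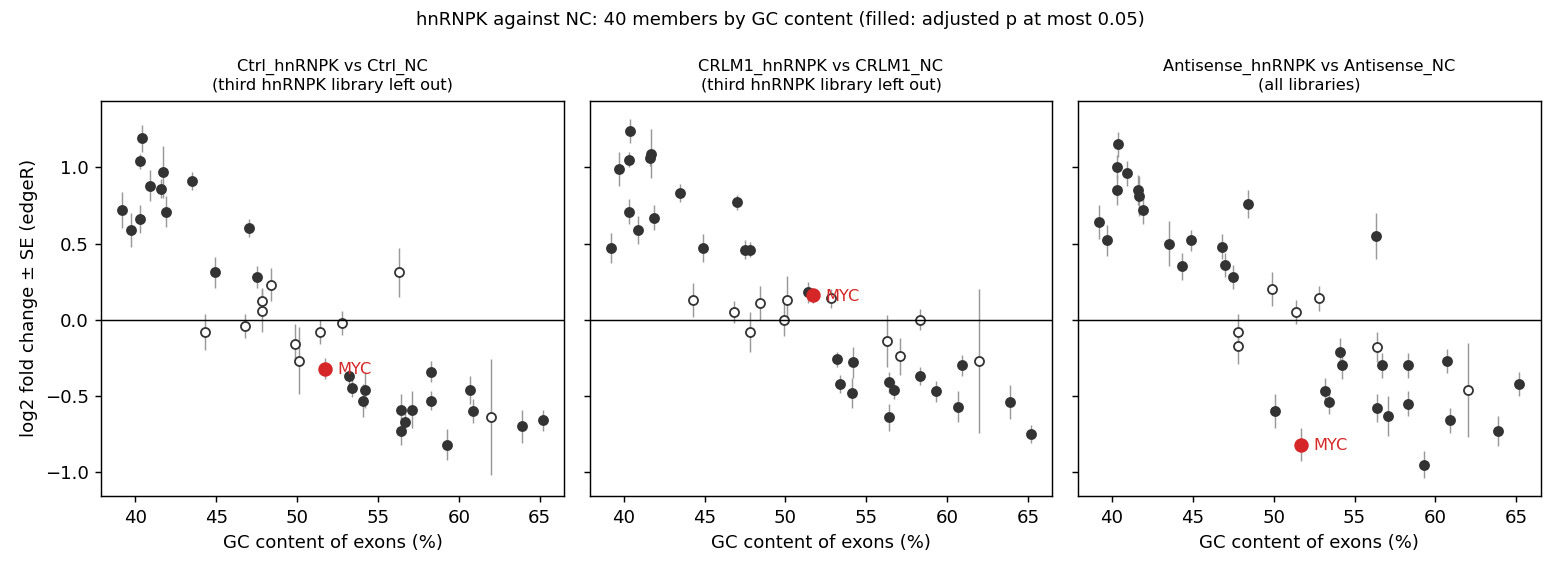
Log2 fold change ± SE (edgeR) of the 40 members for hnRNPK against NC in the 3 backgrounds, against the GC content of their exons in percent. Filled points have an adjusted p of at most 0.05 and MYC is red. The points fall from upper left to lower right in every panel (rho -0.90, -0.89 and -0.83), and MYC lies at -0.32, 0.16 and -0.82.

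With the trend on GC content and length removed, fewer members passed and the split narrowed. In the antisense background 13 members were higher and 5 lower, against 16.4% and 21.5% of genes. Of the 33 that had passed before, 13 passed in the same direction (DDX18, DDX21, DKC1, HEATR1, NIP7, RRS1, UTP4 and WDR12 higher, FBL, GRWD1, MYC, NHP2 and NOP16 lower) and 3 (BOP1, RRP9 and UBTF) passed in the opposite one. Without the third library, 7 were higher and 6 lower in the empty background (8.86% and 17.3% of genes) and 14 higher and 2 lower in the CRLM1 background (12.7% and 13.6%). A relation to GC content remained among the members. Spearman's rho over the 40 was -0.48, -0.32 and -0.26 in the empty, CRLM1 and antisense backgrounds, against -0.05, -0.03 and -0.03 over all genes. DDX18 and DDX21 were higher and NHP2 lower in all 3 of these fits, DDX18 at 0.56 ± 0.09, 0.67 ± 0.09 and 0.52 ± 0.08. The GC content of DDX18, DDX21 and NHP2 was 40.4%, 41.6% and 53.4%. MYC was at -0.14 ± 0.07 in the empty background (edgeR adjusted p = 0.144), 0.34 ± 0.04 in the CRLM1 background (6.8e-07) and -0.64 ± 0.12 in the antisense background (0.00137). What produced the relation to base composition was not tested.

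Genes of the wider lists also passed in both directions with HNRNPK overexpression. In the antisense background, where 33.4% of all genes were higher and 30.5% lower, 63 of the 114 other ribosome biogenesis genes were higher and 23 lower (median 0.36), led by SDAD1 (1.32 ± 0.12, edgeR adjusted p = 4.5e-07) and RRN3 (1.18 ± 0.09, 1.6e-07), the initiation factor of RNA polymerase I. With the GC trend removed 27 were higher and 14 lower, with a median of 0.07. Of the 20 partners and antagonists, 5 were higher and 10 lower, and the MAX-binding repressors MNT (-1.39 ± 0.14, edgeR adjusted p = 3.6e-06) and MXD4 (-1.06 ± 0.11, 1.6e-06) fell most. With the GC trend removed 1 of these 20 was higher and 7 lower, against 16.4% and 21.5% of all genes. Of the 30 targets outside the ribosome, 11 were higher and 11 lower (7 and 3 with the GC trend removed), with SRM, a polyamine synthase, at -1.29 ± 0.09 (edgeR adjusted p = 1.3e-07) and GART, a purine synthesis enzyme, at 1.07 ± 0.09 (3.6e-07). Without the third library, where 29.6% and 29.9% of all genes were higher and lower in the empty background and 29.5% and 29.1% in the CRLM1 background, 56 of the 114 were higher and 39 lower in the empty background and 62 higher and 30 lower in the CRLM1 background. With the GC trend also removed these became 16 and 20 (median near 0), and 24 and 9 (median 0.05). Of the 20 partners 7 were higher and 10 lower, and 8 and 9, and of the 30 targets 9 were higher and 18 lower, and 10 and 17. MXD4 fell by 0.94 and 0.95 on the log2 scale in these fits.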

How the data were processed

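RNA was extracted with TRIzol, libraries were made with the KAPA RNA HyperPrep kit and sequenced as paired-end reads. According to the study's methods the authors trimmed reads with FASTX-Toolkit, aligned them with TopHat2 (at most 4 mismatches) to GRCh38 with Gencode v23 and kept uniquely mapped reads. They deposited raw read counts per gene and FPKM per gene. The strand setting is not given in the sources used here. All 18 libraries were used. Levels are CPM scaled by TMM over all libraries, and levels are compared between genes only on FPKM. Each comparison was fitted on its own groups with edgeR 4.0.16 (R 4.3.3, filterByExpr, TMM, robust quasi-likelihood F-test, two-sided), and p-values were adjusted over all genes tested. All 40 members passed the filter on low counts in each of the 6 comparisons. A member passed at an adjusted p of at most 0.05. The study's rule of at least 2-fold was counted beside it. Interaction terms used the 4 groups involved. The scripts were tested on simulated data.

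The members and lists were chosen with earlier results of these data known. Full statistics are given for MYC in every comparison and for at most the 4 highest and 4 lowest members past the threshold, from the fit without the third hnRNPK library where fewer than 2 passed, at most 2 per direction in interactions and for genes of other lists. Coordinates, exon GC content and overlaps came from Gencode v44 on GRCh38, and promoters from RefSeq (GRCh38.p14). Alternatives were RLE size factors, no filter, DESeq2 1.42.0, limma 3.58.1 on log2(FPKM + 0.1) and log2(FPKM + 1), a single fit, a replicate block, removal of a GC and length trend, and each replicate left out. DESeq2, FPKM and the single fit were not used for interaction terms. Removing the trend together with leaving out the third hnRNPK library was added after seeing the data.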

Additional observations from a re-analysis of the deposited data

Results flagged for a closer look

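The response of MYC to HNRNPK overexpression differed between the CRLM1 and the antisense background by 1.07 ± 0.21 on the log2 scale (SE, interaction term over 12 libraries, edgeR adjusted p = 0.0293). All 3 CRLM1_hnRNPK libraries lay above their NC libraries and all 3 Antisense_hnRNPK libraries below theirs. The third CRLM1_hnRNPK library, whose profile across all genes was closer to CRLM1_NC than to its own replicates, had the highest MYC level of its group at 1055 CPM. The difference was 1.13 ± 0.10 when the third hnRNPK library of both backgrounds was left out. That fit also dropped the third Antisense_hnRNPK library, which was close to its own replicates.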

How the results depend on the processing

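In a single fit of all 18 libraries, 0, 18 and 8 members passed for CRLM1_NC against Ctrl_NC, Antisense_NC against Ctrl_NC and CRLM1_NC against Antisense_NC, and MYC was at -0.22 in the first; there the discordant libraries enter the shared estimate of the spread. Without a filter on low counts 2 members passed in Ctrl_hnRNPK. With the GC and length trend removed 1 passed in CRLM1_hnRNPK, 18 in Antisense_hnRNPK and 5 in the CRLM1 minus antisense interaction. With the third hnRNPK library also left out 13, 16 and 17 passed in the empty, CRLM1 and antisense backgrounds, and MYC was at 0.34 in the CRLM1 background. Leaving out that library of both backgrounds gave 3, 19 and 10 members in the interactions of CRLM1 minus empty, CRLM1 minus antisense and antisense minus empty, with fewer samples. NOC4L in CRLM1_hnRNPK, which had not passed with all libraries, changed sign to 0.07 with the trend removed, 0.03 without the first CRLM1_hnRNPK library and 0.03 with the trend removed and the third library left out. Over the single libraries left out it ran from -0.54 to 0.03. Except where a sample set or fit explains it by construction, the cause was not tested.

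With each library left out in turn, 16 to 20, 33 to 36 and 30 to 33 members passed in the 3 NC comparisons, and 0 to 29, 0 to 29 and 30 to 34 in the empty, CRLM1 and antisense hnRNPK comparisons. The value of 29 came in each case from leaving out the third hnRNPK library. MYC ranged from -0.25 to -0.21, -1.06 to -1.04, 0.81 to 0.84, -0.32 to -0.13, 0.16 to 0.31 and -1.01 to -0.72. Replicate numbers did not pair the libraries (same-number correlations from -0.103 to 0.059), and with a replicate block 20, 36, 34, 0, 0 and 32 members passed.

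Of the counts and MYC values recomputed under an alternative, 167 kept their direction and side of the threshold or stayed within 1.5 times, 15 counts moved by more, 3 MYC values passed only under the alternative and 1 no longer passed. For other named members 590 did, 30 passed only under the alternative, 16 no longer passed and 3 changed sign. Low counts limit PPAN and UTP20.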
